A study of Homo sapiens with 12 samples.

Results

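The 8 genes described here encode the sestrins and other proteins that hold back mTORC1, namely SESN1, SESN2, SESN3, DDIT4, TSC1, TSC2, PRKAB1 and DEPTOR. They were selected by gene name, by a list drawn up with earlier results of these data known, and all 8 were found among the 25914 genes listed in both RNA-seq tables. The tables come from 12 libraries of HCT116 and RPE-1 hTERT cells, both labelled as wild-type, treated for 24 h with 10 µM Nutlin-3a or with DMSO, with 3 libraries for each line and treatment. HCT116 is a colon cancer line and RPE-1 hTERT an immortalized noncancerous line from the retinal pigment epithelium. Nutlin-3a is an MDM2 inhibitor through which p53 builds up, and the design asks how the transcriptome of each line changes under such p53 activation.

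mTORC1 is the kinase complex that promotes protein synthesis and cell growth when amino acids, growth factors and energy are at hand. Sestrins restrain it through the amino acid branch, in which GATOR2, GATOR1 and the Rag GTPases decide whether mTORC1 is brought to the lysosome. The growth factor branch runs through the TSC complex, which switches off the small GTPase RHEB, and DDIT4 (also known as REDD1) acts through this complex. AMPK reports low energy and acts on both the TSC complex and mTORC1, whereas DEPTOR binds the mTOR kinase itself. SESN1, SESN2 and PRKAB1 are known p53 target genes, which is background and not a result of these data.

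Each table gives 1 level per gene, the authors' mean normalized count (base mean), in which counts are scaled for library size and averaged over libraries. The values were identical in both tables, with a largest difference of 0.0 over all genes, so that they separate neither the cell lines nor the treatments. Which libraries were averaged is not stated, and the spread between replicates and the reads per library are unknown. The remaining numbers in the tables are the authors' own comparisons of Nutlin-3a with DMSO, which were not used here. The response of the 8 genes to Nutlin-3a, its difference between the lines and the markers of each line were therefore not analysed here. The levels below are descriptions of a pool, with no replicate error and no test, and no order among them can be set against a spread.

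All 8 genes lay above the median of both the listed genes (149.8) and the protein-coding ones (650.6 over 15758 genes). Their base means ran from 781.4 to 4904, with a median of 1987. Base means place a gene in the read counts but, since longer transcripts collect more reads, do not compare the abundance of different transcripts. For levels between genes they were therefore divided by length, either the summed length of all annotated exons or the length of the canonical transcript, both from GENCODE 44.

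**Figure D1:**
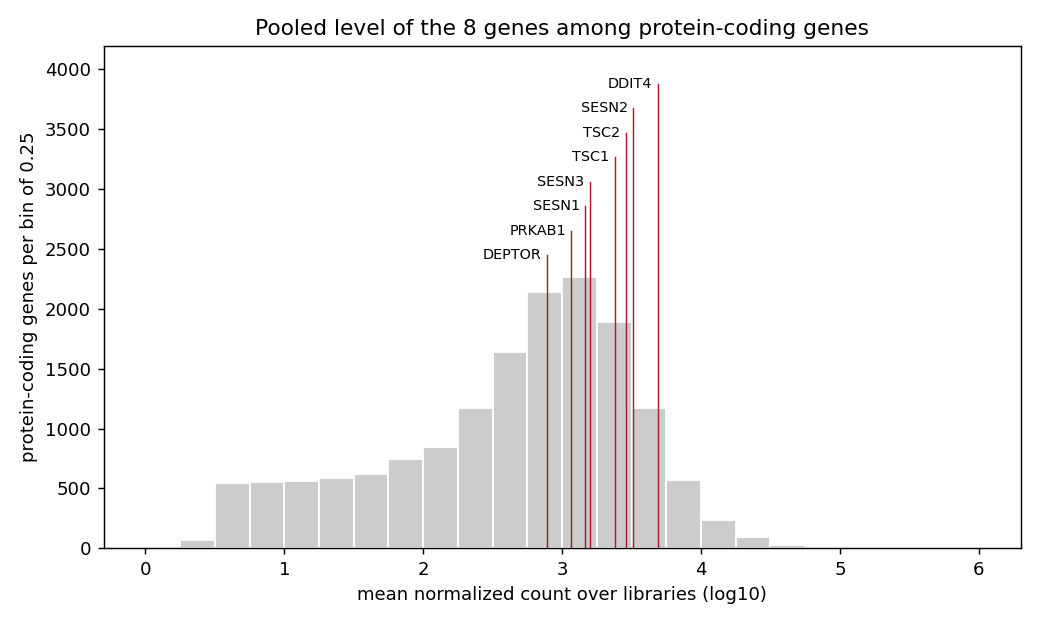
Histogram of the base means of 15758 protein-coding genes (x axis, log10 of the mean normalized count; y axis, genes per bin), with a red line for each of the 8 genes. All 8 lines stand right of the median of 650.6, from DEPTOR at 781.4 to DDIT4 at 4904.

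The sestrins are 3 related proteins encoded on separate chromosomes, of which SESN1 and SESN2 sense leucine through their hold on GATOR2. SESN1 (ENSG00000080546) lies on chromosome 6 of GRCh38 from 108984309 to 109094846 on the minus strand. Its base mean was 1471, above 80.9% of the listed genes. SESN2 (ENSG00000130766), on chromosome 1 from 28259518 to 28282491 on the plus strand, had a base mean of 3261, above 91.7% of the listed genes. SESN3 (ENSG00000149212), on chromosome 11 from 95165513 to 95232541 on the minus strand, had 1587, above 82.0%.

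Per kilobase of exon, SESN2 had the highest level of the sestrins. Its level was 942.0 per kilobase, compared with 202.2 for SESN1 and 150.1 for SESN3. The ratio of the levels per kilobase of exon was 4.66 between SESN2 and SESN1 and 6.28 between SESN2 and SESN3. Per kilobase of the canonical transcript these ratios were 3.63 and 5.67. The exons of SESN3 add up to 10578 bp and those of SESN1 to 7276 bp. The annotated exons of SESN2 sum to 3462 bp, the same as its canonical transcript.

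DDIT4 (ENSG00000168209) is a short gene on chromosome 10 from 72273919 to 72276036 on the plus strand, whose product is made under low oxygen, DNA damage and other stress. Its base mean of 4904 ranked 1234 among all listed genes, above 95.2% of them. With only 2118 bp of exon, its level per kilobase was 2316, the highest of the 8 genes and 2.46 times that of SESN2. The same ratio was 2.99 per kilobase of canonical transcript. DDIT4 and SESN2 took the first and second place of the 8 with both lengths.

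TSC1 and TSC2 form the TSC complex together, in which TSC2 carries the activity towards RHEB and TSC1 keeps TSC2 stable. TSC1 (ENSG00000165699), on chromosome 9 from 132891348 to 132946874 on the minus strand, had a base mean of 2386. For TSC2 (ENSG00000103197), on chromosome 16 from 2047967 to 2089491 on the plus strand, the base mean was 2897. Per kilobase of exon both genes were close, with 135.6 for TSC1 and 141.1 for TSC2, a ratio of TSC2 to TSC1 of 1.04. The ratio rose to 1.63 per kilobase of canonical transcript, with levels of 277.5 and 451.6. All annotated exons of TSC2 sum to 20527 bp, but its canonical transcript is 6415 bp long, so the choice of length moved TSC2 from place 7 to place 4 of the 8 genes.

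PRKAB1 (ENSG00000111725) encodes the beta 1 subunit that holds the AMPK complex together, and lies on chromosome 12 from 119667864 to 119681624 on the plus strand. Its base mean was 1168, above 77.1% of the listed genes. The level was 193.3 per kilobase of exon and 526.4 per kilobase of canonical transcript, which put it in place 5 and place 3. DEPTOR (ENSG00000155792) lies on chromosome 8 from 119873717 to 120050918 on the plus strand. Its base mean was 781.4, above 70.5% of the listed genes. Its exons sum to only 2627 bp, and its level per kilobase of exon, 297.5, was in place 3 of the 8 genes. With the canonical transcript its level was 304.2, in place 5. The ratio of DDIT4 to DEPTOR was 7.78 per kilobase of exon.

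**Figure D2:**
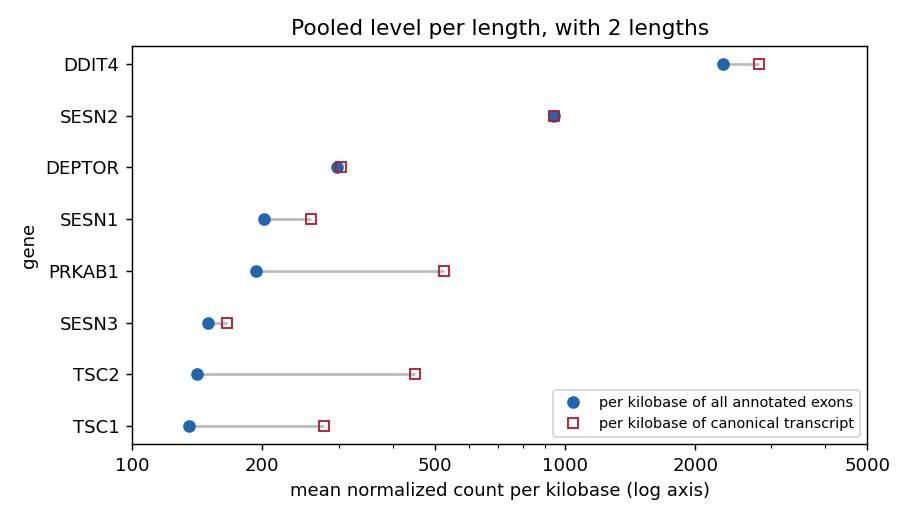
Base mean per kilobase (x axis, log scale) of each gene (y axis), with filled circles for the length of all annotated exons and open squares for the canonical transcript. DDIT4 and SESN2 lead with either length, whereas PRKAB1, TSC1 and TSC2 shift most between circle and square.

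Reads of neighbouring genes could enter these levels where exons overlap. No annotated gene shared exonic bases with any of the 8 genes on the same strand. On the opposite strand, DEPTOR-AS1 overlapped 252 bp of DEPTOR exons (9.59%) and PKD1 overlapped 784 bp of TSC2 exons (3.82%). GFI1B overlapped 349 bp of TSC1 exons (1.98%), and the long noncoding RNA gene LNCRNA-IUR overlapped 98 bp of SESN3 exons (0.926%). These 4 neighbours are listed in the tables. A pair of unnamed long noncoding RNA genes that are not listed overlapped 363 bp of SESN1 exons (4.99%) and 103 bp of PRKAB1 exons (1.70%), also on the opposite strand. DDIT4 and SESN2 overlapped no other annotated gene. The labels describe a directional library kit, and the paper's methods a count set to the strandness of the libraries. Labels and methods differ on the preparation, with ribosomal RNA depletion in the labels and poly(A) selection in the methods, and which of them the levels rest on is not known.

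The levels of the 8 genes were set beside those of 26 other genes of the mTORC1 network, all of them listed. Per kilobase of exon, the 8 genes had a median of 197.8 and the 26 others one of 254.0, against 120.3 for all protein-coding genes with a length. The kinase and its partners (MTOR, RPTOR, MLST8, AKT1S1 and RHEB) ranged from 254.2 for RHEB to 584.0 for AKT1S1. The Rag GTPases and the Ragulator subunits, which place mTORC1 on the lysosome, spanned 98.5 for RRAGC to 1124 for RRAGA. DDIT4 lay above all 26 of these genes per kilobase of exon, and RRAGA was the only one of them above SESN2. Per kilobase of canonical transcript, 2 of the 26 genes exceeded DDIT4 (LAMTOR4 with 3036 and LAMTOR5 with 2857, against 2812), and 7 exceeded SESN2. The AMPK subunits among the 26 genes and STK11, which activates AMPK, ranged from 48.6 per kilobase of exon for PRKAA2 to 503.4 for STK11.

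Relatives and partners of the 8 genes lay on both sides of them. DDIT4L, the paralog of DDIT4, had a level of 19.0 per kilobase of exon and a base mean of 56.9. TBC1D7, the third subunit of the TSC complex, had 59.0 per kilobase of exon, below TSC1 and TSC2. Per kilobase of canonical transcript, however, TBC1D7 had 382.0, between TSC1 and TSC2. In the amino acid branch, the GATOR1 subunits DEPDC5, NPRL2 and NPRL3 had 23.4, 137.5 and 240.2 per kilobase of exon, and the arginine sensor CASTOR1 had 8.19. MTOR, the kinase that DEPTOR binds, had 345.9 per kilobase of exon, above the 297.5 of DEPTOR, and RHEB with 254.2 lay above TSC1 and TSC2. With canonical transcripts, RHEB at 439.0 lay above TSC1 at 277.5 but below TSC2 at 451.6. The AMPK subunit genes PRKAA1 and PRKAG1 had 253.9 and 374.6 per kilobase of exon, above PRKAB1. Those of PRKAA2 and PRKAG2 had 48.6 and 61.2, below PRKAB1. With canonical transcripts, PRKAG1 at 941.7 stayed above PRKAB1, whereas PRKAA1 at 316.6 lay below it. PRKAA2 at 48.6 and PRKAG2 at 309.3 stayed below PRKAB1. PRKAB2, which encodes the other beta subunit of AMPK, had 259.2 per kilobase of exon next to 193.3 for PRKAB1. With canonical transcripts this order turned, with 264.9 for PRKAB2 and 526.4 for PRKAB1.

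**Figure D3:**
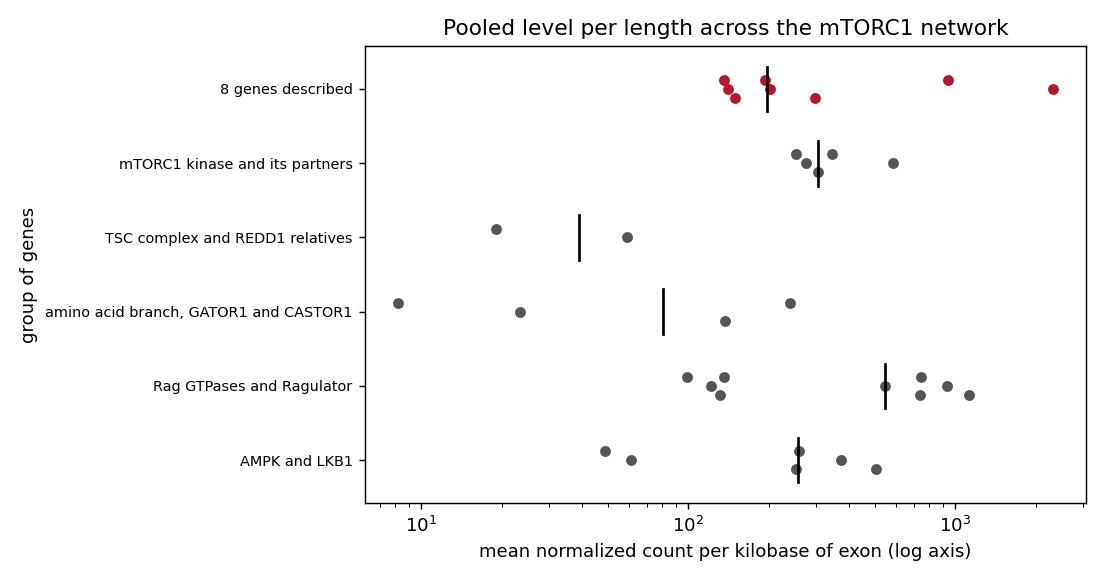
Base mean per kilobase of exon (x axis, log scale) for the 8 genes described (red points) and 26 other genes of the mTORC1 network by role (grey points), with a black bar at the median of each group. The 8 genes have a median of 197.8, and DDIT4 at 2316 is the rightmost point.

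Promoter windows from RefSeq (GRCh38.p14), 250 bases before to 50 bases after each annotated start, were matched for 7 of the 8 genes by symbol. They were searched for the p53 half-site, the 10-base motif known by that name, whose pattern is its own reverse complement. A single match was found, in 1 of the 3 windows of SESN1, and it is shown because p53 builds up under Nutlin-3a. The window with the match, chr6:109008939-109009238, belongs to a start inside the gene, and the other two windows of SESN1, among them the one at the 5′ end of the gene, held no match. The match lies 49 bases before that internal start, on the minus strand at chr6:109009028-109009037, with the CNNG core in capitals.
SESN1: ggaCAAGtct
At least 1 match was present in 2329 of 35116 windows of the same length (6.63%). A match is not evidence of binding, and the absence of one says only that these letters are not in the window.

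The promoter windows of the 7 genes differed in base composition. The window of SESN3 had a GC content of 45.0% and 8 CpG dinucleotides, lower than the medians of all windows, 58.7% and 14. SESN2 had 67.0% and 25, DDIT4 had 69.7% and 30, PRKAB1 had 67.7% and 35, and TSC1 had 61.7% and 25. The windows of SESN1 had a GC content of 75.0%, 72.3% and, for the one with the match, 58.0%, with 28, 38 and 18 CpG dinucleotides. Those of TSC2, which overlap each other, had 73.0% and 74.7%, with 36 and 42. In GC content, SESN3 was the only one of the 7 genes with no window above the median of all windows.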

How the data were processed

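The authors aligned reads to hg38 with the Ensembl annotation and counted them on exons. Per the labels, Trimmomatic 0.39, cutadapt 3.3, SAMtools 1.12, featureCounts 2.0.1 and DESeq2 1.32.0 were among the tools. Versions of several tools in the paper's methods differ from these. As deposited, the signal of a gene is its base mean, for which the authors divided counts by size factors and averaged them over libraries that are not stated. The log2 fold changes, standard errors, test statistics, p-values and adjusted p-values in the 2 tables are the authors' own comparisons and were not used. No values per library were at hand, so the tests planned on counts were not run, and replicates, depth and batches could not be assessed.

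Base means were ranked over all listed genes and divided by exon length from GENCODE 44, which holds 25836 of the 25914 listed genes. The release differs from that of the authors, on the same build. All 8 genes were named whatever their values. The 8 genes and the network list were chosen with earlier results of these data known. Ranks, lengths and motif search were tested on simulated data. Python 3.11.15, numpy 2.4.6, pandas 2.3.3 and matplotlib 3.10.9 were used.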

Additional observations from a re-analysis of the deposited data

How the results depend on the processing

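The median over the 8 genes of the share of listed genes with a lower level was 85.0% by base mean. It was 72.6% per kilobase of exon and 81.3% among genes with a base mean of at least 10. Alternatives chosen after seeing the data gave 76.5% among protein-coding genes and 76.2% per kilobase of canonical transcript. Per kilobase of exon, 3 of the 8 genes moved up and 5 moved down. These shares are descriptions without a threshold, and with no replicate error it cannot be said which shifts exceed the spread between libraries. The planned tests of Nutlin-3a against DMSO, with their other normalization, unfiltered counts and left-out replicates, were not run, as they need values per library. No paired analysis was possible because the levels used are means over libraries, with no values per library.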
